A study of Mus musculus with 931 samples.

Results

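The DNA replication and G1/S genes examined here are 36 genes chosen by symbol from the 40824 gene rows of a bulk and a single-cell read count table of developing mouse islet cells. The rule uses names and no measured value, although the set was drawn up with earlier results of these data known. The bulk table covered Ins1-RFP+ β cells, sorted in pools of many cells, with 2 libraries at each of 7 stages: E17.5 before birth (E, embryonic day) and, by postnatal day (P), P0 and P3, then P9, then P15 and P18 near weaning, and P60 in the adult. The single-cell table covered β cells from Ins1-RFP mice at the same 7 stages and α cells from Gcg-Cre, Rosa-RFP mice at 6 of them (no P3), prepared by Smart-seq2, which copies whole transcripts without molecular identifiers. All mice carried their fluorescent reporter, with no other alteration or treatment named, on mixed backgrounds of C57BL/6 and C3H, with CBA/J added in the Gcg-Cre, Rosa-RFP line. In that line the reporter marks cells in which Gcg-Cre has been active, so it records past as well as present glucagon gene expression. A second set of β cells, 9 at P0 and 12 at P9, had been chosen as likely to be dividing, using RT-qPCR on each cell for Pbk, Foxm1 and Cdk1. None of these 3 selection genes is among the 36.

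The 866 unselected cells labelled with a single hormone comprised 538 β cells (25 batches) and 328 α cells (20 batches). Reads were summed over each batch, and the batch was the replicate. The labels name the batch of a cell but no animal, so p-values measure the spread between labelled batches or libraries, which may be technical. Bulk libraries held 10.3 to 21.4 M gene reads, single cells 0.521 to 1.8 M (median 1.15 M) and batches 5.96 to 49.1 M from 5 to 39 cells. The labelled cell types matched their markers: 9 β markers summed to 174245 to 250177 CPM (read counts scaled to library size, per 1 M reads) in β batches at E17.5 and to 1610 to 3796 CPM in α batches of that stage. Acinar markers, which belong to exocrine cells, summed to 0 to 983 CPM in single-cell batches (265 to 983 CPM in α P9, at most 150 CPM elsewhere) but to 195 to 57249 CPM in bulk libraries.

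Before a cell divides it must copy its genome, and the machinery for this is made mostly around the G1/S transition. In G1 the origin recognition complex, Cdc6 and Cdt1 load the Mcm2-7 helicase onto origins (licensing). In S phase Mcm10, Cdc45 and the GINS complex activate it (origin firing), and polymerases, the Pcna clamp, the Rfc clamp loader and single-strand binding proteins copy the strands. E2F transcription factors and cyclin E drive the entry into S phase. Endocrine cells of the islet divide around birth and then seldom in the adult, so these genes serve as a sign of islet cells preparing to divide.

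The promoters of 4 members are shown because they carry the letters of the E2F and CCAAT motifs, which were counted over the gene set. RefSeq promoter windows (GRCm38.p6, 250 bases before to 50 after each start) were matched by symbol for 31 of the 36 genes. An E2F motif (TTTCCCGC, TTTGGCGC, TTTCGCGC or TTTGCCGC, either strand, where overlapping matches were allowed) was found in 12 of the 31 genes, or 38.7%, against 2.6% of 27025 genes and 2.26% of 32851 windows of the same length. The genes were Cdc6, Cdt1, Lig1, Mcm3, Mcm5, Mcm6, Mcm7, Orc1, Pola1, Pold1, Rfc3 and Uhrf1. CCAAT, on either strand, was found in 18 of 31 genes (58.1%) against 41.1% of all genes and 37.4% of windows. A match is a run of letters, not a known site. The stretches below are written 5′ to 3′ on the gene's strand, upstream of the annotated gene, with matches in capitals:
Mcm6 (E2F, minus strand, chr1:128359725-128359835): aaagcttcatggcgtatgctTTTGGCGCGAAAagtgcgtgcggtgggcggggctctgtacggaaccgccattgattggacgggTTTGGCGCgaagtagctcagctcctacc
Mcm5 (E2F, plus strand, chr8:75109336-75109387): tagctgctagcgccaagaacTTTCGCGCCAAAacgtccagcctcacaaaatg
Pola1 (E2F, minus strand, chrX:93632266-93632313): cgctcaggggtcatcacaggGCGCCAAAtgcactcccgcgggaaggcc
Orc6 (CCAAT, plus strand, chr8:85299558-85299602): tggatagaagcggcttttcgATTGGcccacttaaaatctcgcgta
In the stretches of Mcm6, Mcm5 and Pola1 the capitals mark E2F matches only, and in that of Orc6 the CCAAT match. Mcm6 held 3 E2F matches, of which the first and second overlap. Mcm5 held 2 overlapping matches and Pola1 held 1. Orc6 held no E2F match in its window and a single CCAAT match, read here on the opposite strand. Orc6 and Dut, which turn out below to be detected in most cells, both had windows and are not among the 12 genes. Mcm10 and Chaf1a, detected in 5.43% and 8.08% of unselected cells, also had windows and are not among the 12. A link between motif matches and detection was not tested.

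In bulk β cells the summed level of these genes was lower at P0 than at E17.5, P3 or P9, and lowest in adulthood. No member passed the test in the intervals around P0, as given below. Summed over the 36 genes, the level was 1090 and 923 CPM in the 2 libraries at E17.5, 773 and 647 at P0, 899 and 1077 at P3, and 812 and 961 at P9. It was 572 and 629 CPM at P18 and 284 and 305 CPM at P60. The P15 libraries disagreed: replicate 1 held 937 CPM and replicate 2 held 343 CPM. All 36 genes were higher in replicate 1 and 27 of them differed by over 2-fold, whereas 12.0% of the 13747 genes with a mean of at least 1 CPM did so. At the other stages 0 to 3 members differed by over 2-fold between replicates. The same P15 pair differed in Mki67, a proliferation marker (179 and 15.2 CPM), in α markers (6685 and 15677 CPM) and in acinar markers (29048 and 14267 CPM). The part of these other cells in the disagreement was not tested, and P15 enters no comparison below, although its libraries are part of the shared estimate of spread. In bulk samples, fewer cells of a type and less RNA per cell cannot be told apart.

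**Figure D1:**
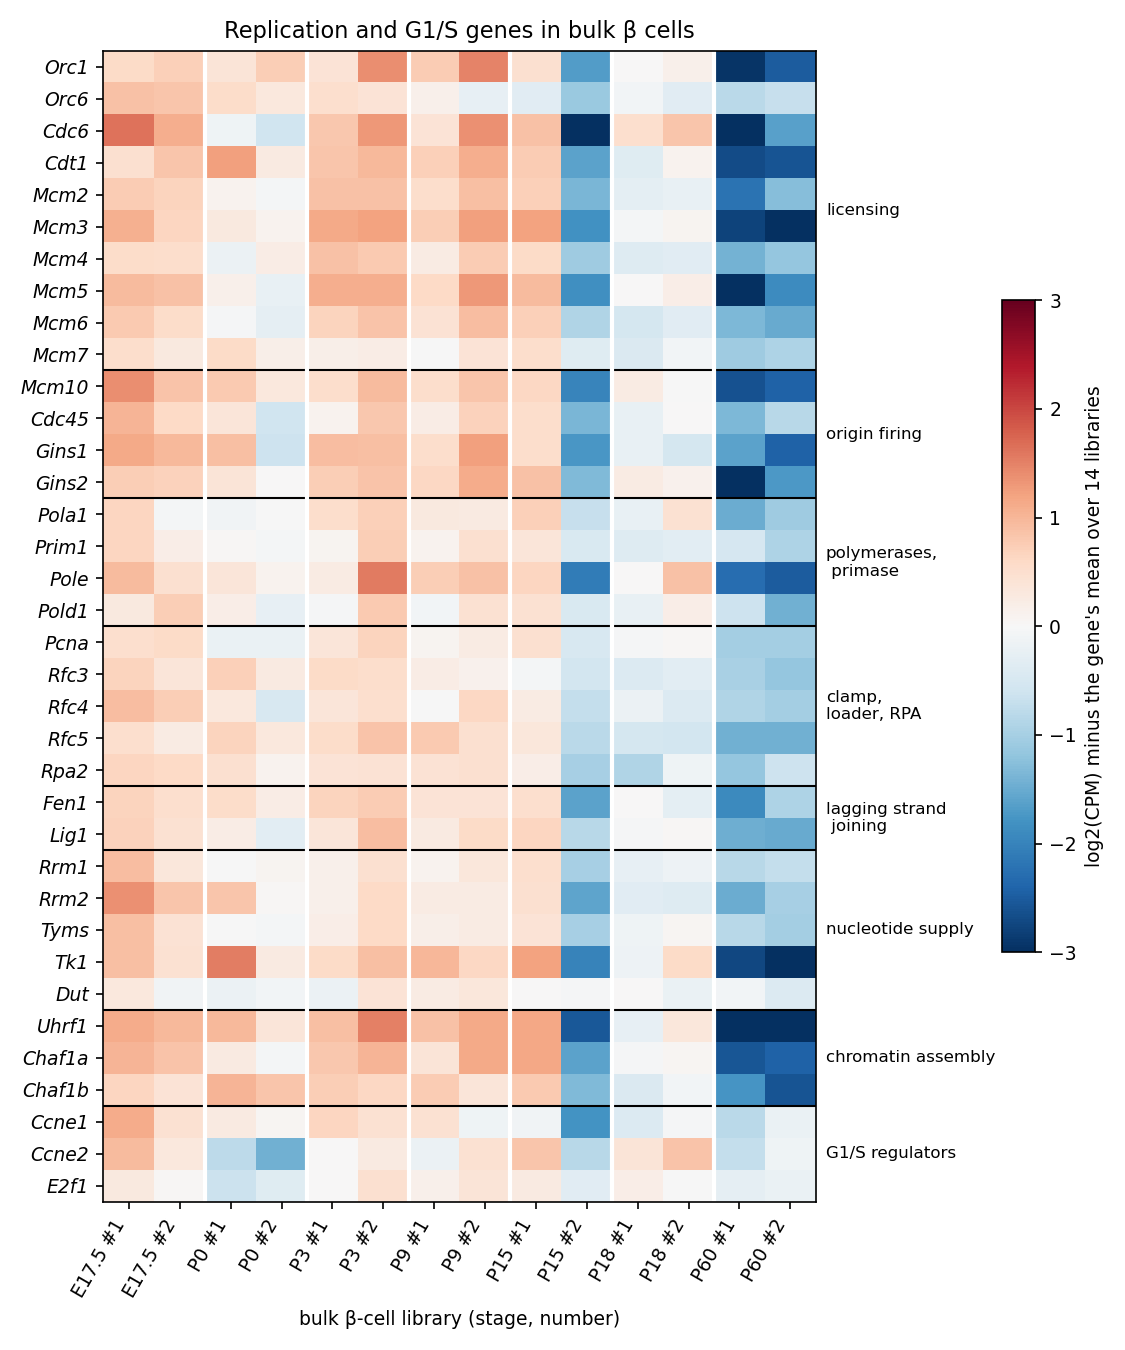
Level of each of the 36 genes (rows, grouped by role) in each of the 14 bulk β libraries (columns, 2 per stage), relative to that gene's mean. The P60 columns and the second P15 column are low in most rows, and the rows of Dut and E2f1 change little.

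Between P60 and E17.5, 32 of the 36 genes were lower in bulk β cells and none was higher (edgeR quasi-likelihood test, Benjamini-Hochberg adjusted p under 0.05). Of all 16086 genes tested, 29.1% changed and 15.2% were lower. The median log2 change was -1.90 for the 36 genes and -0.03 for all genes. Members tested lower in every role except the G1/S regulators. The mitotic genes measured as a check moved in the same direction, with Mki67 at 142 ± 57.9 CPM (SD, n = 2) at E17.5 and 17.4 ± 1.54 CPM at P60. Without replicate 1 of P60, 18 of the 36 were called.

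Among the licensing genes, all 10 were lower at P60. Orc6, a subunit of the origin recognition complex, had 76.1 and 73.7 CPM at E17.5, 46.2 and 34.8 CPM at P9, and 23.6 and 25.6 CPM at P60. Its log2 change from E17.5 to P60 was -1.60 ± 0.23 (SE, adjusted p = 0.000451), and its decline was spread over the stages, with no library of P9 above any of E17.5. Mcm2, a helicase subunit, kept its level longer, with 60.5 and 56.2 CPM at E17.5, 65.0 and 65.3 CPM at P3, and 51.2 and 66.4 CPM at P9. It then stood at 28.9 and 30.7 CPM at P18 and at 7.72 and 14.7 CPM at P60 (log2 change from E17.5 -2.38 ± 0.51, adjusted p = 0.00503). Mcm5, whose promoter is shown above, had 37.2 and 35.0 CPM at E17.5 and 1.91 and 5.18 CPM at P60. The largest log2 change of the helicase subunits was that of Mcm3 (-3.79 ± 0.72), and the smallest that of Mcm7 (-1.41 ± 0.27). Of the loading factors, Cdt1 changed by -3.29 ± 0.64, Cdc6 by -3.61 ± 0.94 and Orc1 by -3.27 ± 0.78. Orc1, the lowest of the 3, had 1.61 and 1.78 CPM at E17.5 and 0.142 and 0.192 CPM at P60.

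All 4 origin firing genes were lower at P60. Cdc45, which joins Mcm2-7 and GINS in the active helicase, had 18.8 and 13.9 CPM at E17.5 and 3.61 and 5.18 CPM at P60 (log2 change -1.89 ± 0.54, adjusted p = 0.0216). Gins1, a GINS subunit, had 3.82 and 3.42 CPM at E17.5 and 0.566 and 0.32 CPM at P60 (-3.02 ± 0.76, adjusted p = 0.0116). Neither gene's libraries overlapped between the 2 stages. Mcm10, which helps to start unwinding, changed by -3.66 ± 0.67, and Gins2 by -3.01 ± 0.66.

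The 4 polymerase and primase genes were lower as well. Prim1, the catalytic primase subunit that lays down RNA primers, had 24.0 and 17.7 CPM at E17.5 and 10.8 and 8.12 CPM at P60, which is the smallest of the called changes among these 36 genes (-1.14 ± 0.31, adjusted p = 0.0172). Pold1, the catalytic subunit of the lagging-strand polymerase δ, had 20.2 and 27.3 CPM at E17.5 and 10.7 and 6.01 CPM at P60 (-1.51 ± 0.40, adjusted p = 0.0158). Pole, of the leading-strand polymerase ε, changed by -3.12 ± 0.73, and Pola1, which extends the primers, by -1.61 ± 0.41.

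All 5 genes of the clamp, clamp loader and single-strand binding group were lower, with log2 changes from -1.81 to -1.48. Pcna, the sliding clamp, had 75.2 and 78.3 CPM at E17.5, 45.8 and 45.9 CPM at P0, 56.2 and 62.9 CPM at P9, and 26.2 and 26.3 CPM at P60 (log2 change from E17.5 to P60 -1.55 ± 0.24, adjusted p = 0.000812). Rpa2, a subunit of the single-strand binding protein RPA, had 20.0 and 19.4 CPM at E17.5 and 5.74 and 8.37 CPM at P60 (-1.48 ± 0.37, adjusted p = 0.011). The clamp loader subunits Rfc3, Rfc4 and Rfc5 changed by -1.60, -1.80 and -1.81. On the lagging strand, the flap nuclease Fen1 had 32.2 and 28.6 CPM at E17.5 and 5.38 and 10.7 CPM at P60. DNA ligase 1, Lig1, had 39.7 and 34.2 CPM and then 8.92 and 8.69 CPM (-2.07 ± 0.39, adjusted p = 0.00242).

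Of the 5 nucleotide supply genes, 4 were lower and Dut was not. Rrm1, the large subunit of ribonucleotide reductase, had 79.0 and 53.3 CPM at E17.5 and 23.7 and 25.3 CPM at P60 (-1.43 ± 0.36, adjusted p = 0.0122). Its partner Rrm2 changed by -2.35 ± 0.52, thymidylate synthase Tyms by -1.61 ± 0.36 and thymidine kinase Tk1 by -3.62 ± 0.86. Dut, the dUTPase that keeps uracil out of DNA, had 39.8 and 29.6 CPM at E17.5, 37.8 and 40.2 CPM at P9, and 30.2 and 24.0 CPM at P60. Its E17.5 and P60 libraries overlapped (-0.36 ± 0.21, adjusted p = 0.227).

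All 3 chromatin assembly genes were lower at P60. Uhrf1, which recruits the maintenance methyltransferase to newly copied DNA, had 34.9 and 31.2 CPM at E17.5, 29.5 and 35.3 CPM at P9, and 1.84 and 1.47 CPM at P60. Its log2 change of -4.32 ± 0.88 (adjusted p = 0.00389) was the largest of the 36 fitted changes in this comparison. Chaf1a, the large subunit of chromatin assembly factor 1, had 20.2 and 18.0 CPM at E17.5 and 1.7 and 1.85 CPM at P60 (-3.42 ± 0.67), and Chaf1b changed by -2.66 ± 0.55.

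None of the 3 G1/S regulators passed the test. E2f1, the transcription factor, had 31.0 and 25.9 CPM at E17.5, 16.3 and 19.8 CPM at P0, 28.4 and 33.4 CPM at P9, and 20.9 and 22.2 CPM at P60 (log2 change from E17.5 to P60 -0.40 ± 0.23, adjusted p = 0.214). Its lowest stage by the mean was P0, not P60. Cyclin E2, Ccne2, had 22.2 and 14.2 CPM at E17.5, 6.65 and 4.24 CPM at P0, 14.9 and 20.7 CPM at P18, and 6.94 and 10.5 CPM at P60 (-1.06 ± 0.48, adjusted p = 0.118). Cyclin E1, Ccne1, changed by -1.29 ± 0.47 (adjusted p = 0.058).

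The lower adult level was not yet present at P9, and no member passed the test in the intervals before it. From E17.5 to P0, 0 of 36 members passed the edgeR test (6.34% of all genes did), with a median log2 change of -0.56 and 4 members at an unadjusted p under 0.05. DESeq2 called 2. From P0 to P9 again 0 passed (8.98% of all genes did), with a median of 0.34 and 3 members at an unadjusted p under 0.05. DESeq2 called 1. In the fit with no low-count filter, 10 and 7 members were called in these 2 intervals, and 4 and 4 without either P15 library. The shares of all genes given here belong to the main fit, so these other counts stand without a background. From P9 to P60, 27 members were lower and none higher (16.2% of all genes changed, and 9.43% were lower), with a median of -1.77. This comparison shares the P60 libraries with the one above. It depended on single libraries: without replicate 2 of P60 it gave 4 calls, without replicate 1 of P60 it gave 6, and without either P9 library it gave 16. By stage means, 16 members were highest at E17.5, 13 at P3, 5 at P9 and 2 at P0, and 33 were lowest at P60.

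Markers of other cells also differed between the bulk stages. At E17.5 the acinar markers summed to 4293 and 1259 CPM, and at P60 to 57249 and 19877 CPM, while all 10 acinar markers were called higher. Mesenchymal markers summed to 67.5 and 156 CPM at E17.5 and to 9.35 and 2.24 CPM at P60, and endothelial markers to 45.4 and 38.3 CPM and then to 12.9 and 3.2 CPM. Their part in the change of the replication genes was not tested.

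In single cells the same comparison gave different counts in the 2 cell types. In β cells, 1 of 36 members was lower at P60 than at E17.5 (6.97% of 18537 genes changed, 3.89% lower), with a median log2 change of -0.49 against -0.01 for all genes. The sign of this β median was not stable: it was 0.47 without batch 3 of β E17.5, -1.77 in FACS-sorted batches alone and 0.62 in manually picked ones. The FACS-sorted fit held batch 3 as its single batch of β E17.5. In α cells, 22 were lower (9.97% of genes changed, 5.66% lower), with a median of -2.53 against 0. A test of the difference between the 2 cell types passed for only Ccne1 and Rrm2 of the 36 (3.67% of all genes, 1.65% lower in α cells). In data simulated at the size of the β comparison, the test recovered 12% of genes changed by a log2 fold of 1, 64% at 2 and 96% at 4, against 46%, 99% and 100% at the size of the bulk comparison. Recovery at the level and batch spread of each member was not tested. Members differed in both: over the β batches at E17.5, Mcm5 had 0.351 to 10.8 CPM and Orc6 73.7 to 92.2 CPM. Leaving out batch 4 of α E17.5, which had 6 cells, reduced the α count to 7, and leaving out batch 3 or batch 4 of α P60 reduced it to 13 or 12. Among FACS-sorted batches alone the α count was 3. Batch 4 was the only manually picked batch of α E17.5, so no count is given for picked batches alone.

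**Figure D2:**
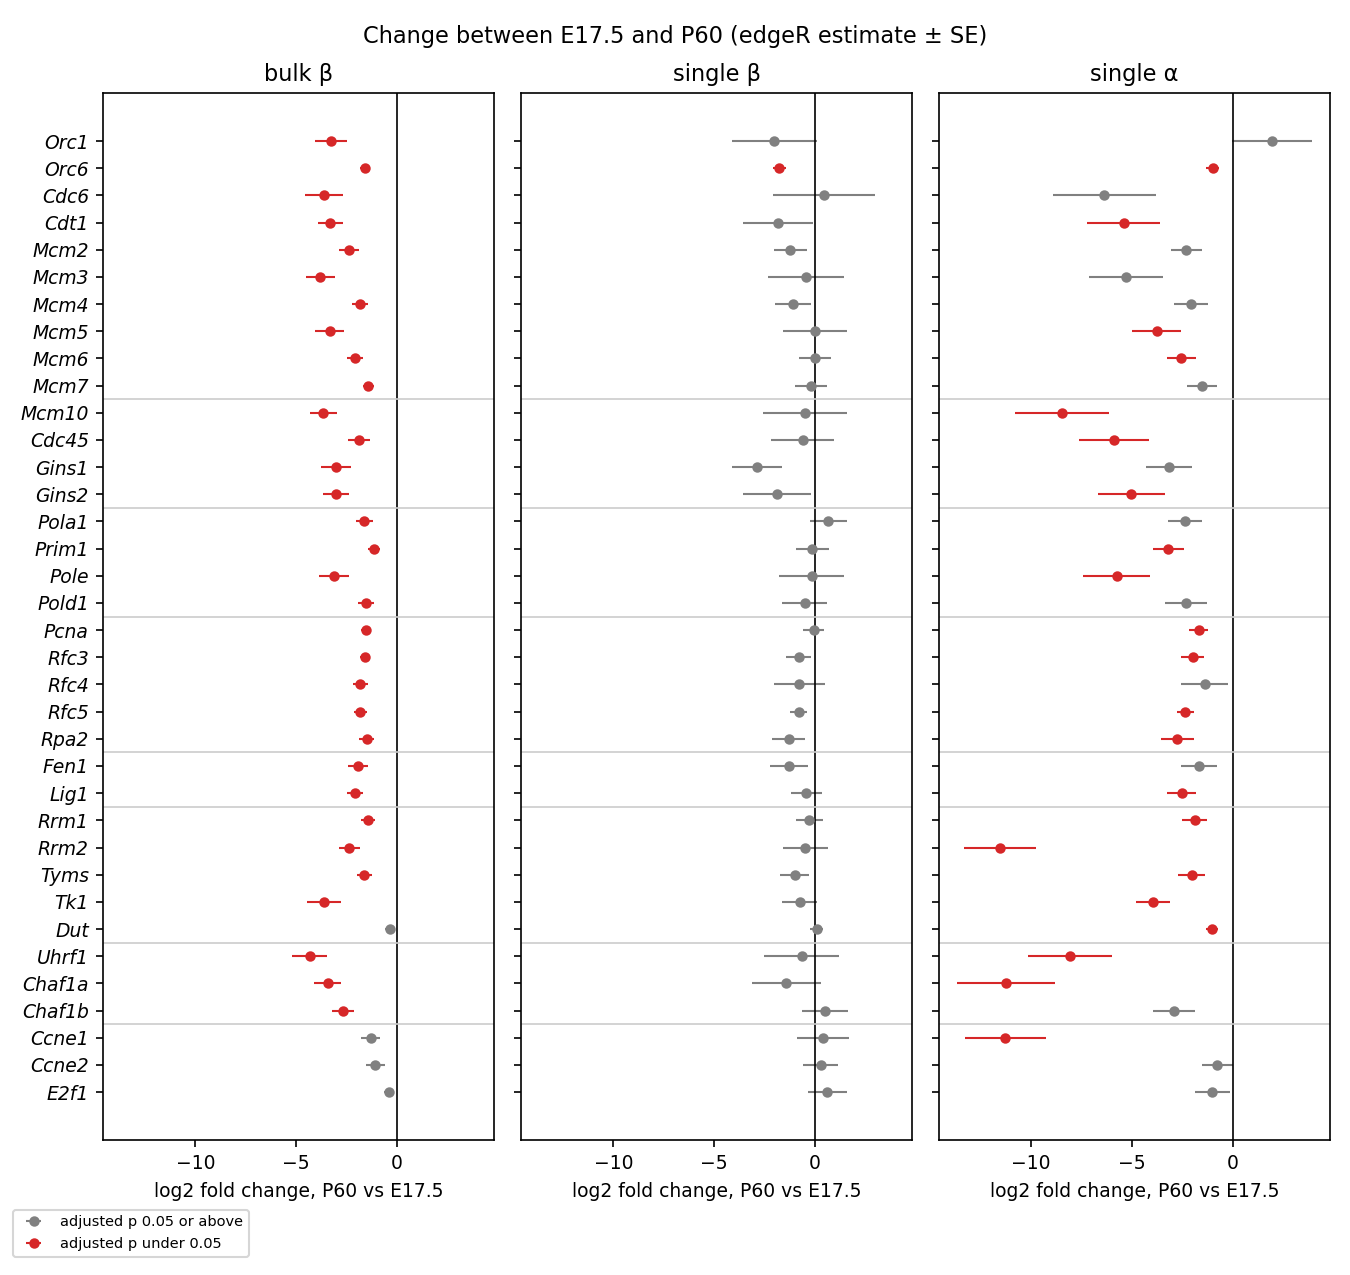
Log2 change from E17.5 to P60 of each member, with its standard error, in bulk β libraries, single β batches and single α batches (panels with a shared axis). Bulk β and α values lie mostly below 0, and single β values scatter closer to 0 with wide errors.

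Orc6 was the 1 member called in single β cells. It had 87.5, 73.7 and 92.2 CPM in the 3 batches at E17.5 and 29.4, 22.2, 39.7, 21.1 and 14.6 CPM in the 5 batches at P60. The groups did not overlap (log2 change -1.75 ± 0.32, adjusted p = 0.000316). The level stood between at P9, with 35.2, 31.6 and 58.9 CPM. In α cells Orc6 had 30.9, 48.9, 39.3 and 57.6 CPM at E17.5 and 8.8, 31.0, 14.5, 32.9 and 28.8 CPM at P60, with overlap (-1.0 ± 0.31, adjusted p = 0.0288).

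Scaled by library totals, with the 2 tables normalised separately, 33 of 36 members (91.7%) had a lower mean in single β batches than in bulk β libraries at E17.5, and 26 (72.2%) were lower with no overlap. Of the 13625 genes with a bulk mean of at least 1 CPM, 70.8% had a lower mean and 51.4% were lower with no overlap. On the TMM scale used elsewhere, Orc6 was not lower (84.5 ± 9.63 CPM in single batches, SD, n = 3, and 74.9 ± 1.73 CPM in bulk, n = 2), nor was Rfc3 (17.9 ± 4.28 and 17.7 ± 2.65 CPM), and Dut was nearly equal (34.6 ± 9.79 and 34.7 ± 7.24 CPM). Mcm5 had 0.351, 0.684 and 10.8 CPM in the 3 single β batches against 37.2 and 35.0 CPM in bulk. Pcna had 11.8, 13.3 and 31.3 CPM against 75.2 and 78.3 CPM in bulk. Mki67, as a check, had 2.19 ± 2.85 CPM (SD, n = 3) in single β batches and 142 ± 57.9 CPM in bulk. The single β batches at E17.5 held 57 cells in all.

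Among α cells, the largest called changes were in genes that reached 0 or nearly 0 reads at P60. Chaf1a and Ccne1 had 0 reads over the 5 batches of α P60 (83 cells), where the floor of 3 reads over the group equals 0.0313 CPM. Against the E17.5 group, with 980 and 906 reads, Chaf1a was at least 472-fold lower and Ccne1 at least 436-fold lower. Rrm2 had 1 read at α P60 against 3232 reads at α E17.5, a ratio of 4668 (95% counting interval 837 to 184414). Reads are not independent molecules, so such intervals and floors cover counting error only. The edgeR adjusted p was 0.00208 for Chaf1a, 0.000239 for Ccne1 and 2.3e-05 for Rrm2. The starting level rested largely on the 6 cells of batch 4: Rrm2 had 11.9, 1.8, 23.9 and 174 CPM in the 4 batches of α E17.5, and Chaf1a had 3.09, 4.53, 4.09 and 48.8 CPM. Rrm2 and Ccne1 passed the test in 20 of 20 alternative fits of this comparison, and Chaf1a in 19 of 20. Chaf1a shares 52.5% of its exon bases with a gene on the opposite strand, so its counts are uncertain.

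Other members called in α cells kept reads at P60. Rfc5 had 15.6, 37.0, 51.6 and 58.9 CPM at E17.5 and 8.21, 5.23, 9.44, 12.5 and 6.92 CPM at P60, with no overlap (log2 change -2.35 ± 0.42, adjusted p = 0.000199). Pcna had 31.3, 33.5, 70.9 and 104 CPM and then 14.1, 15.6, 22.7, 23.6 and 19.5 CPM (-1.69 ± 0.48, adjusted p = 0.0188). Dut had 77.2, 113, 74.2 and 152 CPM and then 24.5, 56.5, 63.1, 55.6 and 63.8 CPM (-1.01 ± 0.29, adjusted p = 0.0216). Thus in α cells Dut passed the test, whereas in bulk β cells it did not. The difference between single α and single β cells in this change of Dut was -1.11 ± 0.44 (adjusted p = 0.167), which missed the threshold. Mesenchymal markers summed to 55.1 to 108 CPM in α batches at E17.5 and to 0 to 14.4 CPM at P60, and acinar markers to 15.0 to 52.5 CPM and to 32.2 to 150 CPM. Their part in these changes was not tested.

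The other intervals in single cells gave few calls. From E17.5 to P0 no member passed in β cells (0.0809% of genes did) or in α cells (0.248%), with 5 and 1 members at an unadjusted p under 0.05. The median log2 change was 1.72 in β cells, 0.45 without batch 4 of β P0, -0.25 in FACS-sorted batches alone and 3.53 in picked ones. In α cells it was -0.79, -0.18 without batch 4 of α E17.5, -1.58 without batch 1 of α P0, 0.44 in FACS-sorted batches alone and -2.44 in picked ones. Each of these medians within a collection method had a single batch at E17.5 or at P0. From P0 to P9 again none passed in β (0.372% of genes) or α cells (1.07%), with 2 and 0 members at an unadjusted p under 0.05. From P9 to P60 none passed in β cells (0.626% of genes), with 4 at an unadjusted p under 0.05, and 3 were lower in α cells (0.847% of genes changed, 0.566% lower). These 3 were Rrm2, Chaf1a and Rfc5 (-1.99 ± 0.44, adjusted p = 0.0181), and none was called without batch 4 of α P9 or in FACS-sorted batches alone. DESeq2 called 9, and ERCC totals and the replicate block 1 each. Acinar markers summed to 265 to 983 CPM in the α P9 batches and to 32.2 to 150 CPM at α P60, and their part was not tested. For the counts of 0 in β cells, DESeq2 called 0 from E17.5 to P0, 1 from P0 to P9 and 1 from P9 to P60.

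**Figure D3:**
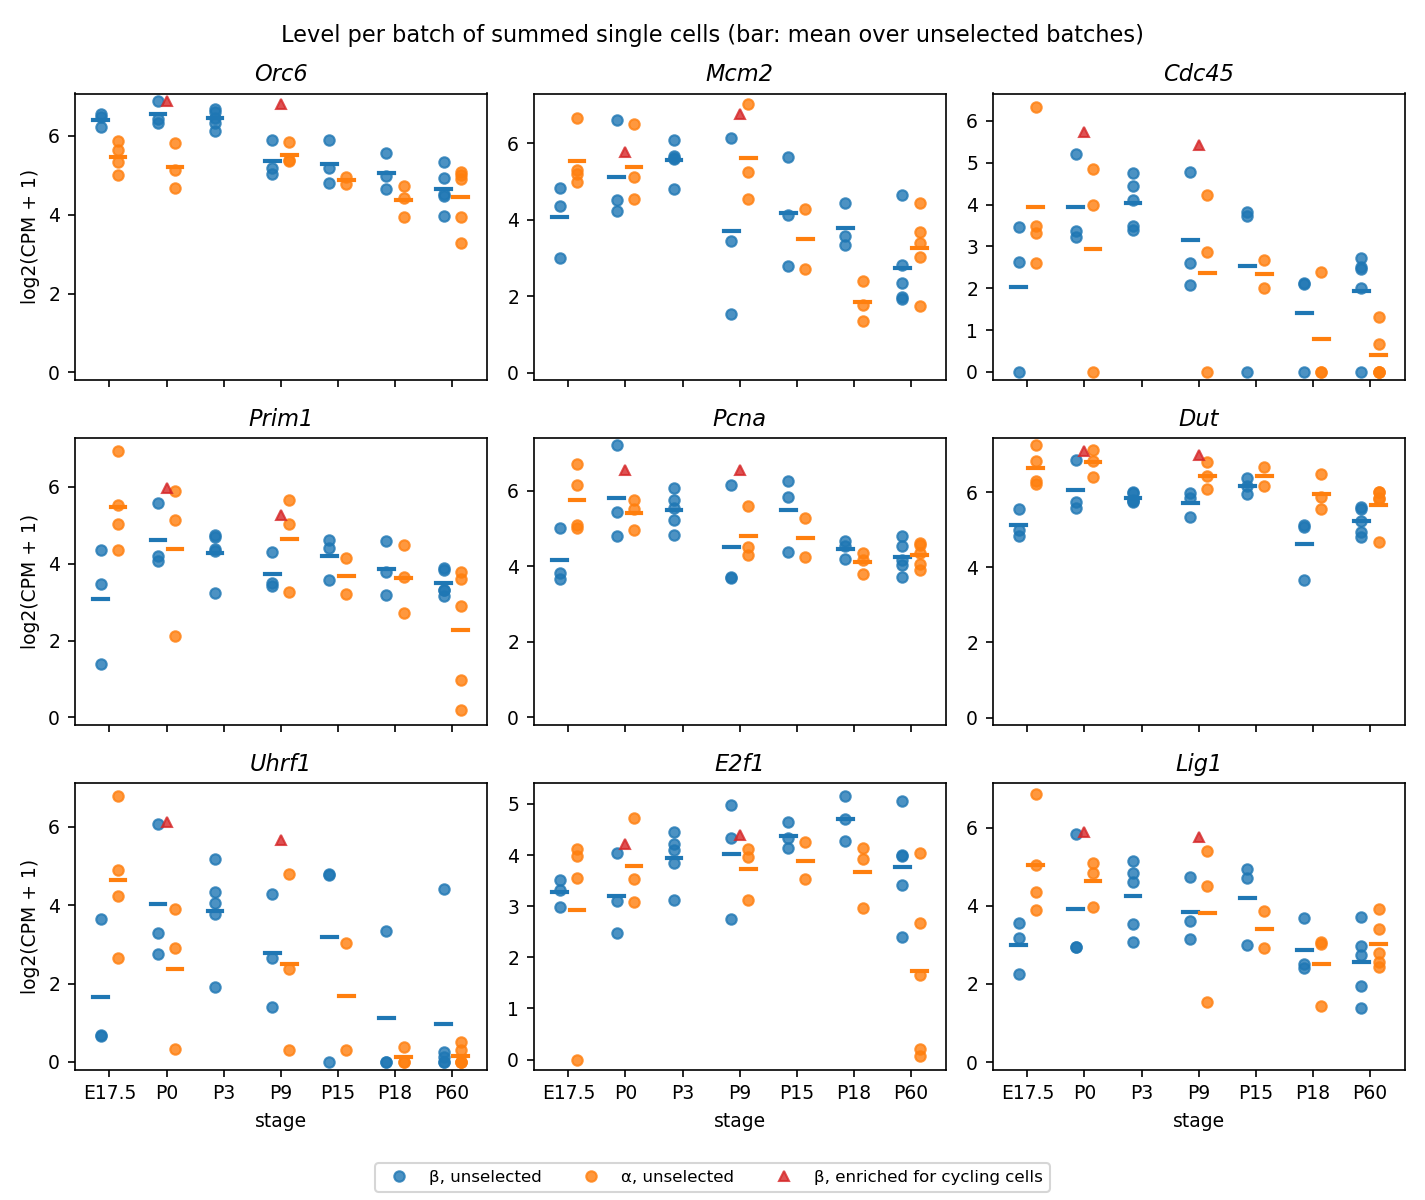
Level in CPM of selected members in each single-cell batch by stage, with β and α batches and the enriched β batches drawn separately. Orc6 in β batches is lower at P60 than at E17.5 with no overlap, and single batches of few cells stand highest for several genes.

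The summed level of the 36 genes differed between batches of a group, by more in some groups than in others. In β cells at P0 the 3 unselected batches summed to 547, 438 and 2404 CPM, the last from 9 cells. In α cells at E17.5 the 4 batches summed to 545, 934, 905 and 2773 CPM, the last from 6 cells. In β cells at P9 the 3 unselected batches summed to 1042, 287 and 364 CPM, the first from 23 cells, and in α cells at P0 to 1128, 335 and 834 CPM, the first from 21 cells. At P60 the 5 β batches summed to 247, 210, 563, 227 and 173 CPM, and the 5 α batches to 223, 287, 267, 249 and 342 CPM. At P3, where α cells were not collected, the β batches summed to 544, 878, 806, 1274 and 712 CPM.

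Between cell types at E17.5, Dut was the 1 member called, and it was higher in α cells (8.31% of all genes changed, 3.25% higher). It had 27.4, 30.7 and 45.8 CPM in β batches and 77.2, 113, 74.2 and 152 CPM in α batches, which do not overlap (log2 difference, α minus β, 1.61 ± 0.35, adjusted p = 0.00168). The median difference of the 36 genes was 2.1 against 0.06 for all genes (1.28 without batch 4 of α E17.5, 0.56 in FACS-sorted batches alone and 3.89 in picked ones), and 14 had an unadjusted p under 0.05. The count depended on the fit: it was 9 with DESeq2 and 6 with library totals. It was 5 without batch 1 of α E17.5, 2 without batch 3 of α E17.5 and 3 without batch 3 of β E17.5. Either collection method alone left a single batch in α or in β cells at E17.5, so no count is given for it. At P0, Orc6 was the 1 member called, and it was lower in α cells (4.96% of all genes changed, 2.83% lower). It had 84.4, 79.8 and 118 CPM in β batches and 55.4, 24.8 and 34.4 CPM in α batches (-1.31 ± 0.37, adjusted p = 0.029). That call was lost without batch 2 or 3 of α P0 or without any of the 3 β batches.

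At P60, Ccne1, Rrm2 and Chaf1a were lower in α than in β cells (12.9% of all genes changed, 7.02% lower). Ccne1 had 5.4, 4.42, 11.1, 8.26 and 4.13 CPM in the β batches and 0 reads in every α batch, which is at least 161-fold lower (adjusted p = 0.000326). Rrm2 had 5.11, 3.03, 25.8, 6.63 and 2.38 CPM in the β batches, from 1042 reads, against the single read in α cells (adjusted p = 0.000271). Chaf1a was at least 26.5-fold lower (adjusted p = 0.0279), and 2 of the 5 β batches also held 0 CPM. The call of Chaf1a held in 14 of 21 alternative fits (adjusted p up to 0.237), and those of Ccne1 and Rrm2 in 21 of 21. The median log2 difference of the 36 genes was -0.09, with 17 fitted values above 0 and 19 below, and it was 0.62 without batch 3 of β P60.

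The enriched batches showed higher values of most members, without a call. Their summed levels were 1981 CPM at P0 and 1884 CPM at P9, against 438 to 2404 CPM in the unselected P0 batches and 287 to 1042 CPM in the unselected P9 batches. In the fit over both stages, 0 of 36 members passed (0.245% of 20445 genes did), with 9 at an unadjusted p under 0.05. DESeq2 called 1. The median log2 difference was 1.60 against -0.33 for all genes, and each enriched batch was assumed to vary like the others. With ERCC spike-in totals as the scale, where the median of all genes was 0.67, 9 members were called, and without batch 4 of β P0 1. FACS-sorted batches alone left a single unselected batch at P9, so no count is given for them. The share of 0.245% belongs to the main fit and is no background for these counts. Dut had the smallest p, with 136 CPM in the enriched P0 batch against 52.0, 46.7 and 116 CPM in unselected batches, and 127 CPM in the enriched P9 batch against 61.9, 39.5 and 57.1 CPM (1.18 ± 0.35, adjusted p = 0.174). Mcm2 had 53.3 CPM in the enriched P0 batch against 17.9, 22.1 and 96.3 CPM, and 108 CPM in the enriched P9 batch against 70.0, 9.84 and 1.91 CPM. Unselected batch 4 of P0 was above the enriched P0 batch for Mcm2, and also for Pcna (148 against 93.8 CPM) and Rrm1 (234 against 176 CPM). Pbk, which served for the choice of cells, had 330 CPM and 228 CPM in the enriched batches.

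The members differed in how many cells carried them. To compare cells at one depth, each was thinned to 500000 reads, and a gene was called detected at 5 reads or more. Of the 36 genes, 3 were detected in over 50% of the 866 unselected cells, 23 in 10 to 50% and 10 in under 10%. Dut was detected in 82.3% of cells, Orc6 in 68.0% and Pcna in 62.7%. Next came Rfc5 with 40.1%, Rfc3 with 36.0% and Mcm7 with 32.0%. Fen1 (1.27%), Orc1 (1.96%) and Cdc6 (4.04%) were at the other end. Fen1 shares 84.2% and Chaf1a 52.5% of exon bases with genes on the opposite strand, so their detection is uncertain. In the 21 enriched cells all 36 genes were detected in a larger share, with a median of 59.5% over the genes against 18.5%. That comparison set β cells of P0 and P9 against unselected cells of all stages and both cell types. Against unselected β cells of P0 alone, the enriched P0 cells had smaller shares for Orc1 (0.0 against 2.82%) and Cdc6 (0.0 against 9.86%). The same held for Orc6 (88.9 against 91.5%) and Chaf1b (22.2 against 25.4%), and the remaining members had larger shares.

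A second measure was the share of a gene's CPM, summed over cells, held by the 10% of unselected cells (87 cells) with the most. These cells held 37.6% of the summed CPM of Orc6, 41.9% for Dut, 56.8% for Pcna and 57.9% for E2f1. For Chaf1a, Mcm10, Cdc6 and Orc1 they held 100%. After thinning, at least 1 read of these 4 genes was found in only 8.78%, 7.85%, 5.08% and 4.04% of cells. A share near 100% in 10% of cells therefore follows from their rare detection. The share was over 90% for 16 genes and under 60% for 6. In cells with under 20 members, Dut was detected in 80.8%, Orc6 in 65.4% and Pcna in 59.7%, whereas Chaf1a was detected in 2.26% and Mcm10 in 0.125%. These cells were set by detection of the same genes, so this contrast is partly fixed by definition and is no separate support. Detection of Orc6 also moved with stage, from 94.7% of β cells at E17.5 to 56.6% at P60.

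**Figure D4:**
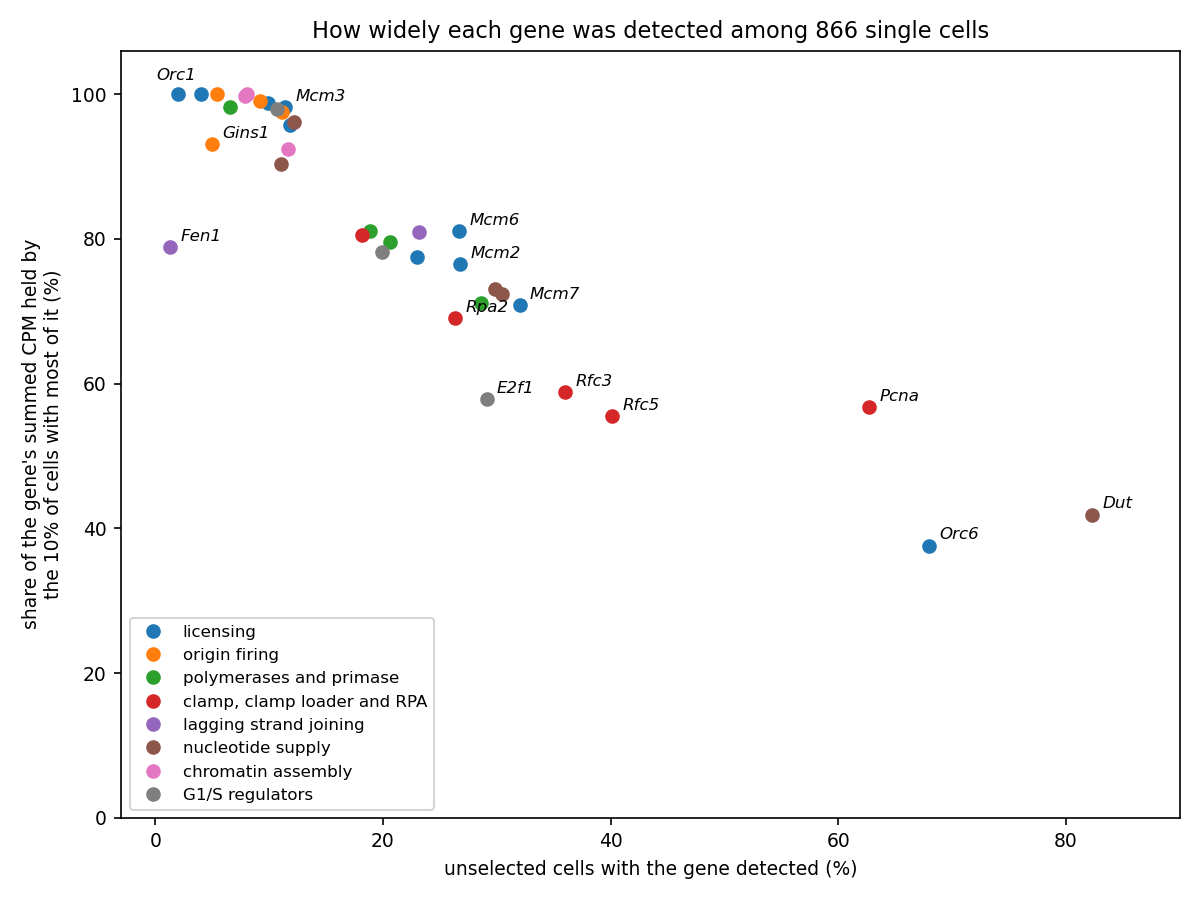
Percentage of unselected cells in which each member was detected and the share of its summed CPM in the top 10% of cells. Dut, Orc6 and Pcna stand apart as widely detected, with 82.3%, 68.0% and 62.7% of cells.

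Counted per cell, most cells had few members and a minority had most of them. The median was 5 to 8.5 members per cell in the 13 unselected groups, and 23 and 24.5 in the enriched batches at P0 and P9. A threshold of 20 members, chosen after the values were seen, was passed by 69 of 866 unselected cells (7.97%, exact 95% interval 6.25 to 9.98%). Between 16 and 23 members there were 31 unselected cells. Of the 21 enriched cells 13 passed (61.9%, exact 95% interval 38.4 to 81.9%). These shares are ranges of a count, not cell types.

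In both cell types the share of such cells was low or 0 in adults. In β cells it was 1 of 57 at E17.5, 7 of 71 at P0, 16 of 88 at P3, 7 of 65 at P9, 4 of 57 at P15, 2 of 71 at P18 and 1 of 129 at P60. In α cells it was 10 of 65 at E17.5, 10 of 46 at P0, 7 of 45 at P9 and 4 of 45 at P15. At P18 it was 0 of 44 α cells, which allows a share of up to 6.82% by the rule of 3 counts (exact 95% upper limit 8.04%), and at P60 0 of 83, which allows up to 3.61% (exact 95% upper limit 4.35%). The counts before weaning depended on the threshold: with 24 members they were 7 of 71 at β P0, 10 of 88 at β P3, 9 of 65 at α E17.5, 8 of 46 at α P0 and 3 of 45 at α P9. At E17.5 the exact 95% intervals at 20 members were 0.0444 to 9.39% in β cells and 7.63 to 26.5% in α cells. Cells of a batch are not replicates, and these intervals cover counting error only. The 1 such cell at β P60 had 35 members and lay in batch 3, whose sum of 563 CPM was the highest of its group.

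**Figure D5:**
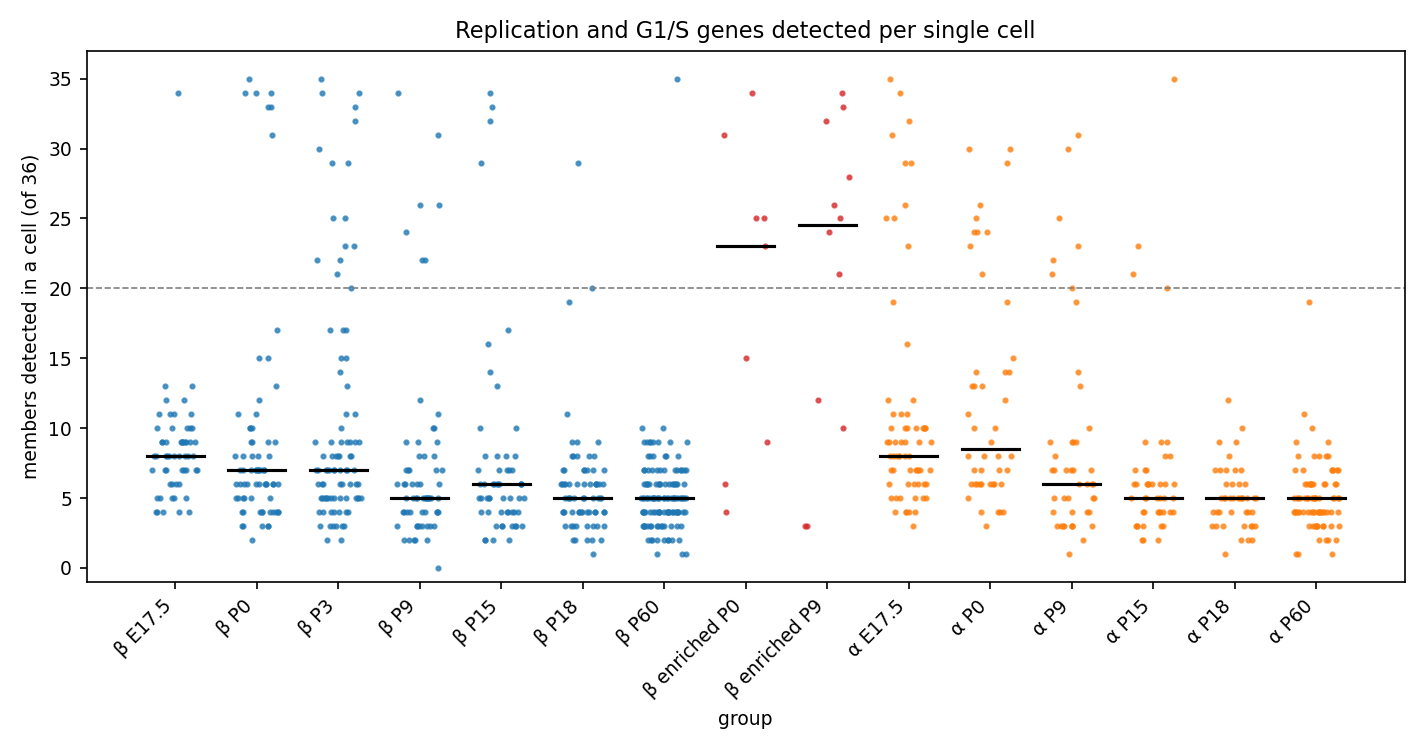
Number of the 36 genes detected in each cell, by group, after thinning. Most cells carry under 10 members, a minority carry 20 or more, and adult α cells reach no more than 19.

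Cells with 20 or more members often, but not always, carried the genes of later cycle phases. Of the 69 unselected cells, Top2a was detected in 51, Cdk1 in 38, Mki67 in 34, Pbk in 34 and Foxm1 in 29. Of the 785 cells under 16 members, Mki67 was detected in 43 (5.48%) and Top2a in 20 (2.55%). At least 2 of the 3 selection genes were detected in 34 of the 69 cells. Among the 13 enriched cells with 20 or more members Mki67 was detected in 7, and among the 8 enriched cells under 16 members in 4. The 2 sets of genes therefore marked overlapping but not identical cells.

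E2f1 showed no decline in single β cells by its batch values. It had 8.9, 10.4 and 6.94 CPM at E17.5, 18.3, 25.2 and 34.5 CPM at P18, and 32.4, 4.24, 15.0, 9.73 and 14.7 CPM at P60. The P18 batches were above all E17.5 batches, a contrast that was not tested, and the P60 batches overlapped both. In α P60 batches it had 0.0454, 5.36, 0.157, 2.13 and 15.5 CPM. E2f1 was detected in 38.5% of α cells at E17.5 and in 7.23% at P60, against 24.6% and 30.2% of β cells. It was not among the 22 members called lower in α cells from E17.5 to P60.

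Some members share exons with a gene on the opposite strand, which bears on their counts. The bulk kit keeps the strand, the single-cell kit does not, and the strand setting of the counting is not given in the sources used here. In the GRCm38 annotation, 84.2% of the exon bases of Fen1 (chromosome 19, 10199132 to 10204169, minus strand) are shared, mostly with Gm10143. For Gins2 the share was 67.3% (with Gse1), for Chaf1a 52.5% (with Ubxn6), for Ccne2 17.4% and for Rfc4 12.7%, and 23 members shared none. Fen1 had 0 to 3.38 CPM in single-cell batches and 5.38 to 34.1 CPM in bulk libraries. The values of these genes are therefore uncertain. Per kilobase of exon, Pcna was the highest member over the bulk libraries (37.0 CPM per kb), followed by Orc6 (27.3) and Dut (16.6), and Orc1 was the lowest (0.482).

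A list of 58 other replication genes, set by role and not by response, gave fewer calls. From E17.5 to P60 in bulk β cells, 30 of the 58 were lower and 1 was higher, with a median log2 change of -1.19. Of all genes 29.1% changed and 15.2% were lower, and the counts by role below have the same background. By role, 5 of 8 origin firing genes, 2 of 8 polymerase and primase genes, 4 of 6 clamp, loader and RPA genes and 2 of 4 lagging strand genes were lower. So were 3 of 5 fork protection genes, 4 of 5 nucleotide supply genes, 5 of 6 chromatin genes and 5 of 8 G1/S regulators. None of the 8 other licensing genes (Orc2 to Orc5, Gmnn, Mcm8, Mcm9 and Mcmbp) passed, although 3 had an unadjusted p under 0.05. The 2 of smallest p were Nasp, a histone chaperone, with 90.8 ± 9.66 CPM at E17.5 and 20.7 ± 0.832 CPM at P60 (SD, n = 2, log2 change -2.13 ± 0.19, adjusted p = 2.21e-05), and Shmt1, an enzyme of one-carbon metabolism, with 6.02 ± 1.75 and 0.709 ± 0.0987 CPM (-3.08 ± 0.49, adjusted p = 0.000891). The 1 gene that was higher, singled out after its values were seen, was Rrm2b, the ribonucleotide reductase subunit made outside S phase, with 46.1 ± 3.31 and 68.1 ± 4.02 CPM (0.56 ± 0.17, adjusted p = 0.0274).

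The same list in single cells gave 18 lower genes from E17.5 to P60 in α cells (5.66% of all genes were lower) and 0 in β cells (3.89%), where 5 had an unadjusted p under 0.05. Between cell types at E17.5, 5 of the 58 were higher in α cells (3.25% of all genes were): Tipin, Rfc2, Rpa3, Rnaseh2b and Shmt1. In the enriched comparison 0 of 58 passed (0.245% of all genes did), with 10 at an unadjusted p under 0.05.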

How the data were processed

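The files hold raw read counts per gene, deposited by the authors as whole numbers with no normalization. The tools listed in the submitters' processing notes are DESeq 1.20.0, TopHat2 2.1.0 and HTSeq 0.6.0, and the builds are GRCm38 and mm10, with roles not given in the sources used here. From these counts, 14 bulk libraries and 45 batch sums of 866 cells were tested with edgeR 4.0.16 (quasi-likelihood, TMM scaling, low-count filter, R 4.3.3). Stage was the factor in bulk (16086 genes), and stage with cell type plus collection method (FACS or manual) in single cells (18537 genes). The enriched batches were added for their own comparison (20445 genes). ERCC rows (92) were left out of the gene counts. The 26 multihormone and 4 Ngn3-GFP cells entered no comparison. Fits were checked on simulated counts. All 36 genes passed the low-count filter in each fit.

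The members and lists were chosen with earlier results of these data known. All 36 genes are named, with values for the 2 of highest CPM per kb in each role; of the 58 other genes, the 2 of smallest p in bulk from E17.5 to P60. Replicate numbers were not used as pairs in the main fits. Same-number deviations correlated at -0.214 to 0.417 in bulk (16 of 42 pairs over 0.1) and -0.105 to 0.181 in single cells (7 of 217 over 0.1). With 2 libraries a stage, other-number pairs in bulk mirror these values (medians 0.0576 and -0.0576). The check therefore cannot tell whether bulk libraries of the same number share a batch. Alternatives were DESeq2 1.42.0, other scalings and filters, the replicate block, 1 collection method, and leaving out each replicate.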

Additional observations from a re-analysis of the deposited data

Results flagged for a closer look

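Within groups of 4 or more batches, the level of a named gene was checked for a single batch far from the others. Of 64 gene and group pairs tested, 10 held such a batch. The rule flags about 1 in 20 for independent, normally distributed values. Several genes stood out in the same batch, so the pairs are not independent and that rate does not apply directly. In α E17.5, batch 4 (6 cells) was far above the next batch for 5 genes: Mcm2 at 101 CPM (next 38.4), Rrm1 at 209 (next 40.1), Pold1 at 96.5 (next 22.3), Cdc45 at 79.8 (next 10.2) and Chaf1a at 48.8 (next 4.53). In β P60, batch 3 was far above the next batch for 3 genes: Mcm2 at 24.3 CPM (next 5.99), Uhrf1 at 20.2 (next 0.199) and Gins1 at 0.866 (next 0.174). In β P3, batch 4 was highest for Ccne2 at 37.9 CPM (next 14.0). In α P60, batch 1 was lowest for Dut at 24.5 CPM (next 55.6).

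For 2 genes, the change from E17.5 to P60 differed between α and β cells in the edgeR test of the difference itself. The fitted log2 difference, α minus β, was -11.67 for Ccne1 (adjusted p = 0.00591) and -11.09 for Rrm2 (adjusted p = 0.0028). Because α P60 held 0 reads of Ccne1 and 1 of Rrm2, these fitted sizes depend on the prior count and are no bounds.

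Among the multihormone cells, which entered no comparison, 1 of 2 β cells at P15 and 1 of 4 β cells at P9 had 20 or more of the 36 genes.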

How the results depend on the processing

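Values of single genes were compared under the alternatives only for members called in the main fit. Of these 1377 values, 1123 kept their direction and side of the threshold, 254 kept only the direction and 0 reversed. Members not called are outside this count. In single β cells from E17.5 to P0, with no call, the members' median log2 change ran from -0.25 to 3.53 over the alternatives. Both ends came from a collection method alone, with a single batch in a group. Of 295 recomputed counts, 237 equalled the main count or stayed within 1.5 times of it. Comparisons with a main count of 0 entered this total whenever the count stayed at 0, so the total is no measure of stability for them. The cause of the 58 moved counts was not tested. Shares of all genes given with the results belong to the main fits, so the counts below stand without a background. With DESeq2 the count of called members was 2 (bulk E17.5 to P0), 1 (bulk P0 to P9), 1 and 1 (single β P0 to P9 and P9 to P60), 9 (α P9 to P60), 9 (α against β at E17.5), 5 (difference between cell types) and 1 (enriched). With no low-count filter it was 10 and 7 in bulk (E17.5 to P0, P0 to P9) and 2 for α against β at E17.5. With library totals alone it was 1 (β P0 to P9), 3 (β E17.5 to P60), 6 (α against β at E17.5) and 0 (at P0); with ERCC totals 1 (α P9 to P60), 0 (α against β at P0) and 9 (enriched); with equal weight per cell 2 (α against β at E17.5). Scaling by library totals moved the median log2 change of all genes from E17.5 to P60 to -0.46 in bulk, -0.76 in β and -0.73 in α cells, and ERCC totals moved that of the enriched comparison to 0.67. In FACS-sorted batches alone it was 0 (β E17.5 to P60), 0 (α P9 to P60), 3 (α E17.5 to P60), 0 and 0 (α against β at E17.5 and P0), 0 (difference) and 4 (enriched); in manually picked batches alone 1 (β E17.5 to P0), 0 (α P9 to P60), 11 (α E17.5 to P60), 6 and 0 (α against β at E17.5 and P0) and 5 (difference). With a replicate block it was 1 (α P9 to P60), 7 (α E17.5 to P60) and 0 (α against β at P0). Leaving out 1 replicate gave 0 to 4, 0 to 4, 4 to 32 and 18 to 34 in bulk (E17.5 to P0, P0 to P9, P9 to P60, E17.5 to P60). In β cells it gave 0 to 0 in the first 3 intervals and 1 to 2 from E17.5 to P60; in α cells 0 to 0, 0 to 0, 0 to 3 and 7 to 22. It gave 1 to 5, 0 to 1 and 2 to 4 for α against β at E17.5, P0 and P60, 2 to 3 for the difference and 0 to 1 for the enriched batches. With a threshold of 24 members, 50 unselected cells passed, 21 of them α cells and 1 at α P15. Depth limits the genes with few reads, and few cells per batch limit all single-cell values.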

Other observations

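In the cells left out of the comparisons, the number of the 36 genes detected per cell was low in most. The 4 Ngn3-GFP cells of P0 had 7 to 9 (median 7.5). Multihormone cells from the α line had 7 to 17 at E17.5 (4 cells), 7 to 10 at P0 (5 cells) and 8 at P18 (1 cell). Multihormone cells from the β line had 4 to 15 at E17.5 (4 cells), 6 to 12 at P0 (4 cells), 9 to 26 at P9 (4 cells), 8 to 24 at P15 (2 cells) and 6 to 9 at P60 (2 cells).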
